A study of Mus musculus with 2 samples.

Results

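Venous-like endothelial cells were 98 of the 12951 single cells kept from 14099 barcodes in the ventricles of 2 mice, 53 in mouse 1 and 45 in mouse 2. The animals were wild type C57BL/6 of 10 to 12 weeks, and each gave 1 droplet library of ventricular non-myocytes, made after the atria and the myocytes had been taken out and live cells sorted. There was no treatment, so every comparison is between cells of the same 2 hearts. The libraries hold cells that came through perfusion, centrifugation and the live sort, and no label ties a cell to a vessel. A cell was chosen by its counts of unique molecular identifiers (UMIs, each marking 1 captured RNA molecule). It had at least 500 UMIs with at most 10% mitochondrial, at least 2 UMIs over the endothelial genes Pecam1, Cdh5 and Egfl7, and at most 3 each over the macrophage C1q genes and the fibroblast gene Dcn. It had no UMI of the endocardial genes Npr3 and Cytl1, the arterial genes Gja5, Gja4, Sema3g and Fbln5 or the lymphatic genes Mmrn1 and Prox1, and at least 2 UMIs over Nr2f2 and Vwf together. These 17 genes chose the cells, so their values are given as a description with no test.

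Veins and arteries are lined by endothelial cells with separate programmes. The nuclear receptor COUP-TFII, encoded by Nr2f2, holds venous identity in place and represses Notch signalling, while Notch ligands, receptors and their Hey targets mark arteries. Venules after the capillaries are where white cells leave the blood, by way of P-selectin (Selp), ICAM-1 and VCAM-1. P-selectin is stored with von Willebrand factor (Vwf) in Weibel-Palade bodies. The capillaries of the heart take up fatty acids through Gpihbp1, Lpl, Cd36 and Fabp4.

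Other sets of endothelial cells from the same hearts served for comparison. The other vascular cells met every condition except the last, with at most 1 UMI of Nr2f2 and Vwf, and numbered 739 and 1039 in mice 1 and 2. The arterial-gate cells (48 and 45) had no endocardial UMI and at least 2 UMIs of the 4 arterial genes, and the endocardial-gate cells (36 and 32) had at least 2 UMIs of Npr3 and Cytl1. Venous-like cells made up 5.67% of all gated endothelial cells in mouse 1 (53 of 935, exact Clopper-Pearson 95% interval 4.27 to 7.35) and 3.59% in mouse 2 (45 of 1253, 2.63 to 4.78). They summed to 106495 and 82896 UMIs, with a median per cell of 1863 and 1793 against 1428 and 1382 in other vascular cells. Among cells with at least 1500 UMIs the share of venous-like cells was 8.3% and 5.67%. Scrublet called doublets in 388 and 242 of the kept cells and in none of the 98. The 2 tables had 65 barcodes in common, none of them of a venous-like cell.

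The values that chose the cells were alike in both mice. Nr2f2 stood at 685 and 760 CPM (a gene's UMIs as a share of all UMIs summed over that set of cells in a mouse, on the usual CPM scale) in mice 1 and 2, and Vwf at 920 and 989. In mouse 1, 25 cells had exactly 2 UMIs of the pair and 28 had 3 or more, with a maximum of 9. In mouse 2 these were 21 and 24 cells, with a maximum of 8. Just outside the limit, 73 and 99 cells had 1 UMI, and 666 and 940 had none. Of the 98 cells, 35 carried only Nr2f2, 30 only Vwf and 33 both. Vwf is not a venous gene alone, since the endocardial-gate cells held 2480 and 1965 CPM of it.

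**Figure D1:**
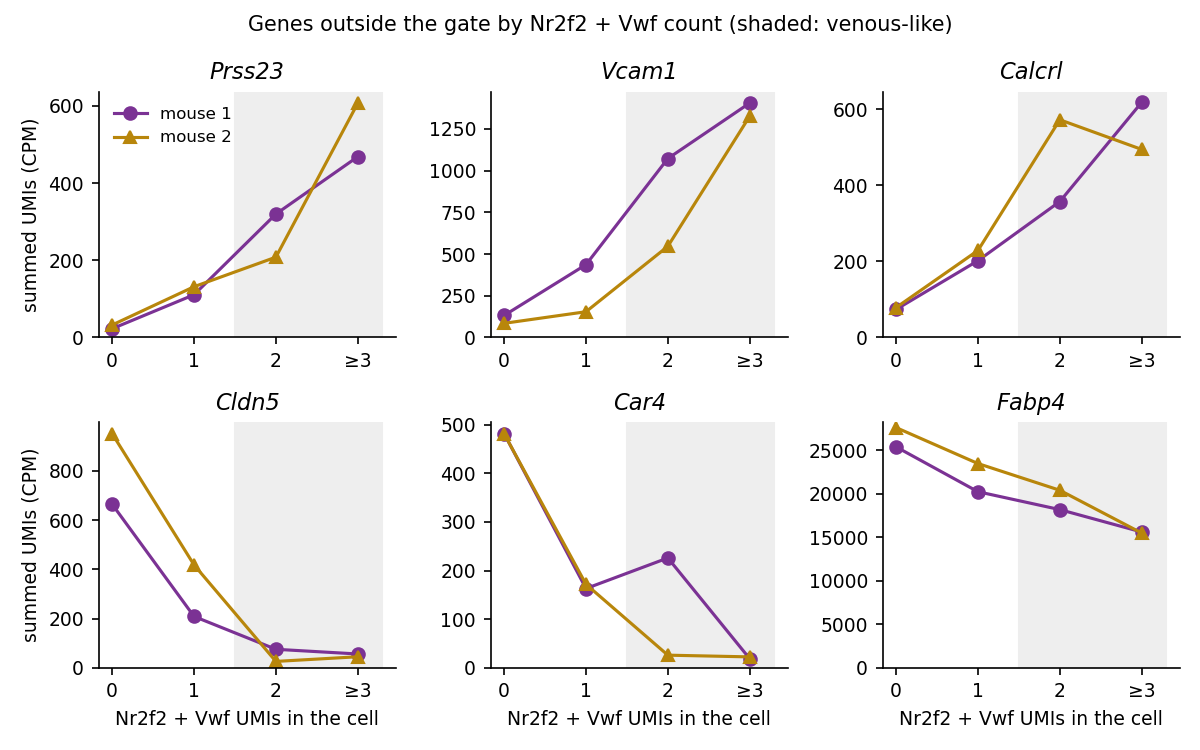
Summed CPM (vertical axes, linear from 0) of 6 genes that the choice of cells did not use, by the number of Nr2f2 and Vwf UMIs in the cell (horizontal axes), for mouse 1 (circles) and mouse 2 (triangles). Shading marks the venous-like cells. Prss23 went from 22.8 CPM at 0 UMIs to 469 at 3 or more in mouse 1 and from 32.5 to 607 in mouse 2, and Cldn5 from 664 to 56.2 and from 950 to 45.0.

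Prss23, a secreted serine protease given as a marker of these cells, was not used to choose them. Its level followed the count of the pair in steps, at 22.8, 111, 320 and 469 CPM for 0, 1, 2 and 3 or more UMIs in mouse 1, and 32.5, 132, 208 and 607 CPM in mouse 2. Vcam1 went the same way in mouse 1, with 132, 437, 1073 and 1406 CPM, and in mouse 2, with 85.0, 155, 547 and 1327 CPM. The tight junction gene Cldn5 went down, at 664, 209, 75.3 and 56.2 CPM in mouse 1 and 950, 418, 26.0 and 45.0 CPM in mouse 2. Cells with 1 UMI of the pair therefore lay between the others in all 3 genes in both mice, as the plot of genes by Nr2f2 and Vwf count shows.

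In the fit across all genes, 77 of 1961 genes tested were higher in venous-like cells than in other vascular cells, which is 3.93% of them, and 47 were lower, which is 2.4%. Together these 124 calls were 6.32% of the genes. A gene was called where edgeR's quasi-likelihood test gave an adjusted p below 0.05 and the change was 2-fold or more. The median log2 fold change over all tested genes was -0.001. DESeq2 on the same sums called 50 and 22, all of them among the first, and cells of at least 1500 UMIs gave 38 and 19 calls over 1440 genes.

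**Figure D2:**
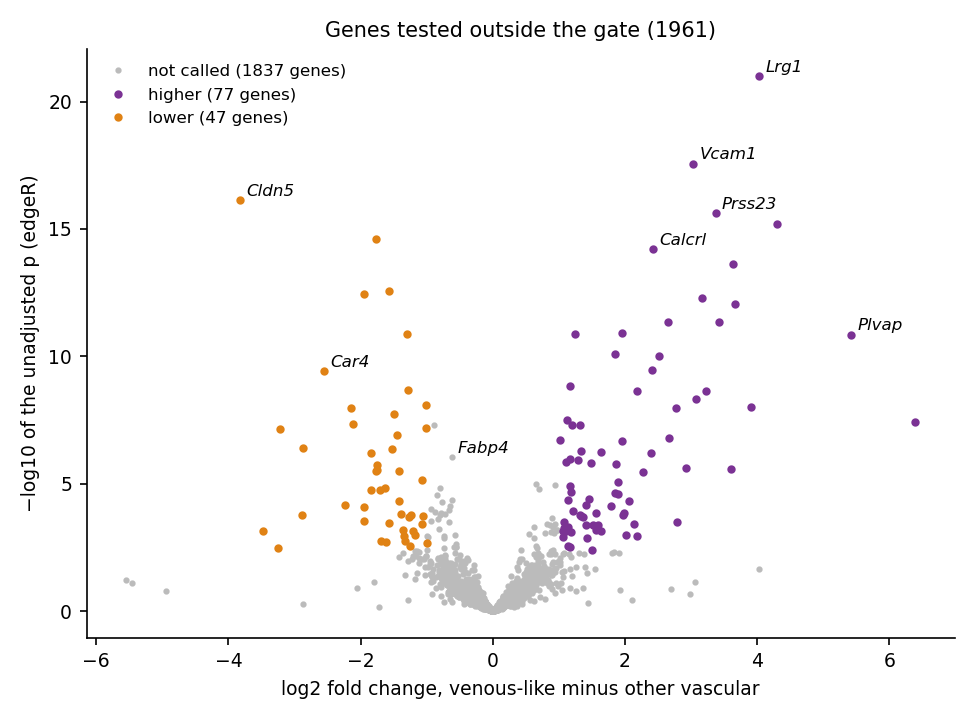
Log2 fold change of venous-like over other vascular cells (horizontal axis) against the −log10 of the unadjusted edgeR p (vertical axis) for the 1961 genes tested outside the 17 that chose the cells. Purple points are the 77 genes called higher, orange the 47 called lower and grey the 1837 others, and Lrg1, Vcam1, Prss23 and Cldn5 lie at the top.

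Of 24 genes on a list of venous identity, 17 passed the filter on low counts. Of these, 12 were higher in venous-like cells and none was lower, and their median log2 fold change was 1.84. The list was drawn up with earlier results of these data known, so its direction is not independent evidence. Prss23 stood at 394 and 422 CPM in venous-like cells and at 33.6 and 43.2 CPM in other vascular cells, a log2 fold change of 3.37 ± 0.29 (SE, edgeR adjusted p = 1.2e-13). The mice were nearly equal, and the groups stood far apart. At least 1 Prss23 UMI was found in 22 of 53 venous-like cells in mouse 1 (41.5%, 28.1 to 55.9) and 22 of 45 in mouse 2 (48.9%, 33.7 to 64.2), against 4.47% and 5.2% of other vascular cells. Macrophages, taken as a measure of free RNA, had it in 0.478% and 0.452% of cells at median depths of 2745 and 2507 UMIs. The macrophages here and below had more than 3 C1q UMIs and no UMI of Dcn, Pecam1, Cdh5 or Egfl7. Having been chosen without these endothelial UMIs, they can understate free endothelial RNA. Cells of at least 1000 UMIs (53 and 44 venous-like, 693 and 871 other vascular) were also thinned to 1000 UMIs. Among these the shares were 28.3% and 34.1% in venous-like and 2.45% and 2.18% in other vascular cells. Fibroblasts are not such a blank for this gene, since 29.8% and 40.7% of them had a Prss23 UMI.

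Lrg1, a secreted glycoprotein that modulates TGF-beta signalling in endothelium, stood at 1146 CPM in mouse 1 and 60.3 CPM in mouse 2. Other vascular cells had 64.8 and 4.93 CPM, so within each mouse the ratio was large while the level differed between the mice. The log2 fold change was 4.03 ± 0.26 (edgeR adjusted p = 2e-18), and without mouse as a block in the fit its adjusted p was 0.072. The vascular proteoglycan gene Bgn was higher at 291 and 338 CPM against 60.0 and 37.0 CPM (log2 fold change 2.66 ± 0.30). Cpe, which trims prohormones, stood at 188 and 277 CPM against 38.4 and 45.0 CPM, and Ctsh, a lysosomal protease, at 84.5 and 193 CPM against 23.2 and 26.5 CPM. Both were called, at log2 fold changes of 2.41 and 2.39. Mgp, which inhibits calcification of vessel walls, rose by 1.84 and Il6st, the shared signalling chain of interleukin 6 receptors, by 1.46 on the log2 scale.

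Some venous genes did not pass. Ephb4, the receptor of venous endothelium for ephrin-B2, stood at 113 and 193 CPM against 108 and 92.5 CPM (log2 difference 0.54 ± 0.34, edgeR adjusted p = 0.45). Nrp2, a co-receptor for VEGF-C and semaphorins, stood at 338 and 181 CPM against 346 and 339 CPM (log2 difference -0.43, adjusted p = 0.41). Aplnr, the apelin receptor, differed by -0.09 on the log2 scale (-0.29 in mouse 1 and 0.10 in mouse 2) and Tmem252 by 0.95, neither past the test. Tmem252 had 15 UMIs in venous-like cells of mouse 1 and none in mouse 2, against 84 and 4 in other vascular cells. Slco2a1, Ackr1 and Il1r1 were too low to be tested. Ackr1, the chemokine scavenger of venules, gave 9 UMIs in 3 of the 98 cells, and in other vascular cells 2 UMIs in mouse 1 and none in mouse 2. At this depth a gene with 0 UMIs in the venous-like cells of mouse 2 could still stand at up to 36.2 CPM, by counting error alone.

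Of 17 tested genes of leukocyte adhesion and junctions, Selp, Vcam1 and Icam1 were higher and Cldn5 and Itga6 lower, with a median of 0.25. The Itga6 call was lost by DESeq2 (adjusted p = 0.28), without the block (0.24) and in cells of at least 1500 UMIs (0.055), and its log2 difference was -2.49 in mouse 1 and -0.32 in mouse 2. Vcam1 stood at 1240 and 965 CPM against 170 and 92.5 CPM, a log2 fold change of 3.04 ± 0.24 (edgeR adjusted p = 2.7e-15), but DESeq2 gave it an adjusted p of 0.41. In mouse 2, 1 cell held 35 of its 80 UMIs. Icam1 was higher by 1.31 on the log2 scale, with 1070 and 290 CPM against 399 and 125 CPM, and its adjusted p without the block was 0.45. Selp gave 30 UMIs in 12 cells of mouse 1 and 1 UMI in mouse 2, against 22 and 1 in the many more other vascular cells. Its log2 fold change was 3.91 ± 0.58 (adjusted p = 6.6e-07, or 0.15 without the block). Lcn2, an iron-binding acute-phase protein, gave 86 UMIs in 22 cells of mouse 1 and none in mouse 2, so its call (log2 fold change 4.30) rests on mouse 1, and in mouse 2 the only UMI was in other vascular cells. DESeq2 gave it an adjusted p of 0.34. Of the 15 tested chemokine and cytokine genes, 6 were higher and 1 was lower, with a median of 0.94. The higher ones included Cxcl16, Ackr3 and Cxcl1, and the lower one was Cxcl12. Cxcl1 was called at 1.33 on the log2 scale, but within mouse 2 alone its log2 difference was 0.43. The Cxcl1 call was lost by DESeq2 (adjusted p = 0.87) and without the block (edgeR adjusted p = 0.51).

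The promoters of 4 genes that moved apart, picked after their values were seen, are shown, with 2 short motifs in capitals where they occurred. These are AGGTCA (searched on both strands, so also as TGACCT), a short site that nuclear receptors such as COUP-TFII read, and TGGGAA (also as TTCCCA), the core of the site of Rbpj, the DNA-binding partner of Notch. Selp and Lrg1 were higher and Cldn5 and Car4 lower in venous-like cells. Each window covers 250 bases before the start of the gene and 50 after it, read 5′ to 3′ in the direction of the gene, from the RefSeq table for GRCm38.p6.
Selp, chr1:164115014-164115313, plus strand: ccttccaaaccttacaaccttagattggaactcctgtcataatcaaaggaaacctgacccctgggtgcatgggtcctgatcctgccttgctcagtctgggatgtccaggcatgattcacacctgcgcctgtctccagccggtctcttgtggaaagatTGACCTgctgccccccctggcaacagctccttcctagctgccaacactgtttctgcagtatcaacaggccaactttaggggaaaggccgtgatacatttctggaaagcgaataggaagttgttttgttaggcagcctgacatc
Lrg1, chr17:56121897-56122196, minus strand: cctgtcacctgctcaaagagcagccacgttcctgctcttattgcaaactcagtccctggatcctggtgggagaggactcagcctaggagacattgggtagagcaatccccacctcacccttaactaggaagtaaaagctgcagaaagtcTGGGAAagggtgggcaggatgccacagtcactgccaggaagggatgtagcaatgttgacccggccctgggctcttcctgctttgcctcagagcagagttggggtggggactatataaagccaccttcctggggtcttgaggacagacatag
Cldn5, chr16:18776597-18776896, plus strand: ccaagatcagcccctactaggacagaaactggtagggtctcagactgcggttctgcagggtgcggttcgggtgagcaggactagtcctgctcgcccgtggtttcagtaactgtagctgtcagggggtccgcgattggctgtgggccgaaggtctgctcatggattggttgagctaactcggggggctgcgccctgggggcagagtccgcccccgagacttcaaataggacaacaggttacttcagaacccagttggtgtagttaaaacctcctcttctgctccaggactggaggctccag
Car4, chr11:84957504-84957803, plus strand: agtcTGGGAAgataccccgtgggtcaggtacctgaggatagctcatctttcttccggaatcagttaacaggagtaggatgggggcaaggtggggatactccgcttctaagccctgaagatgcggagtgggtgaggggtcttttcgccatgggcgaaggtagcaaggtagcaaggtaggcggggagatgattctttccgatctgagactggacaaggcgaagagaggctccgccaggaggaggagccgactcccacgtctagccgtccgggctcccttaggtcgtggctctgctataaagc
AGGTCA occurred once, in Selp at position -93 from the start, and TGGGAA occurred in Lrg1 at -101 and in Car4 at -246. The window of Cldn5 held neither. Of all 32851 promoters in the table, 16.3% held AGGTCA and 25.6% held TGGGAA. Those percentages count starts, while a gene below was counted if any of its starts held the motif. Among the 14 genes with the largest rises, 9 were in the table, and 1 held AGGTCA (Prss23) and 4 held TGGGAA. By starts, this was 2 and 5 of 16. Among the 10 with the largest falls, 8 were in the table, and 0 held AGGTCA and 3 held TGGGAA. By starts, this was 0 and 3 of 11. These matches describe the letters in the windows and do not show binding.

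The other large rises were in genes of hormones, growth factors and protease control. Plvap, which forms the diaphragms of caveolae and fenestrae, had the largest of the 14, at 113 and 157 CPM against 0.80 and 4.32 CPM (log2 fold change 5.42 ± 0.64). Its 25 UMIs came from only 10 of the 98 cells. Stc1, a secreted glycoprotein hormone, stood at 460 and 181 CPM against 27.2 and 21.6 CPM. Insr, the insulin receptor, was even between the mice at 207 and 157 CPM against 26.4 and 15.4 CPM (log2 fold change 3.08 ± 0.45, edgeR adjusted p = 3.5e-07). Igfbp5, which binds insulin-like growth factors, stood at 338 and 241 CPM against 16 and 50.6 CPM, with 17 of the 36 UMIs of mouse 1 in 1 cell. Pthlh, the parathyroid hormone-related protein, gave only 16 UMIs, and its call was lost without cells carrying endocardial markers (log2 difference 3.00, edgeR adjusted p = 0.12) and with Nr2f2 and Vwf at 3 or more (adjusted p = 0.19).

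Cp (ceruloplasmin), Lbp (the lipopolysaccharide-binding protein) and Serpina3g (a serine protease inhibitor) rose by 3.42, 3.23 and 3.67 on the log2 scale. All 3 were higher in mouse 1, for example Cp at 394 CPM in mouse 1 and 84.4 CPM in mouse 2. In mouse 2, 13 of the 15 Serpina3g UMIs came from 1 cell, and the adjusted p of this gene was 0.086 without the block. Spint2, a membrane inhibitor of serine proteases, and 2200002D01Rik stood at log2 fold changes of 2.78 and 2.66. They lie close together on the minus strand, at chr7:29256323-29281912 and chr7:29246561-29248466 (GRCm38, GENCODE M21). Calcrl, the receptor for adrenomedullin and CGRP, was even between the mice, at 488 and 531 CPM against 89.6 and 95 CPM (log2 fold change 2.43 ± 0.23, edgeR adjusted p = 1.7e-12). It was found in 54.7% and 57.8% of venous-like cells, 12.4% and 12.5% of other vascular cells, and 2.10% and 2.94% of macrophages.

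**Figure D3:**
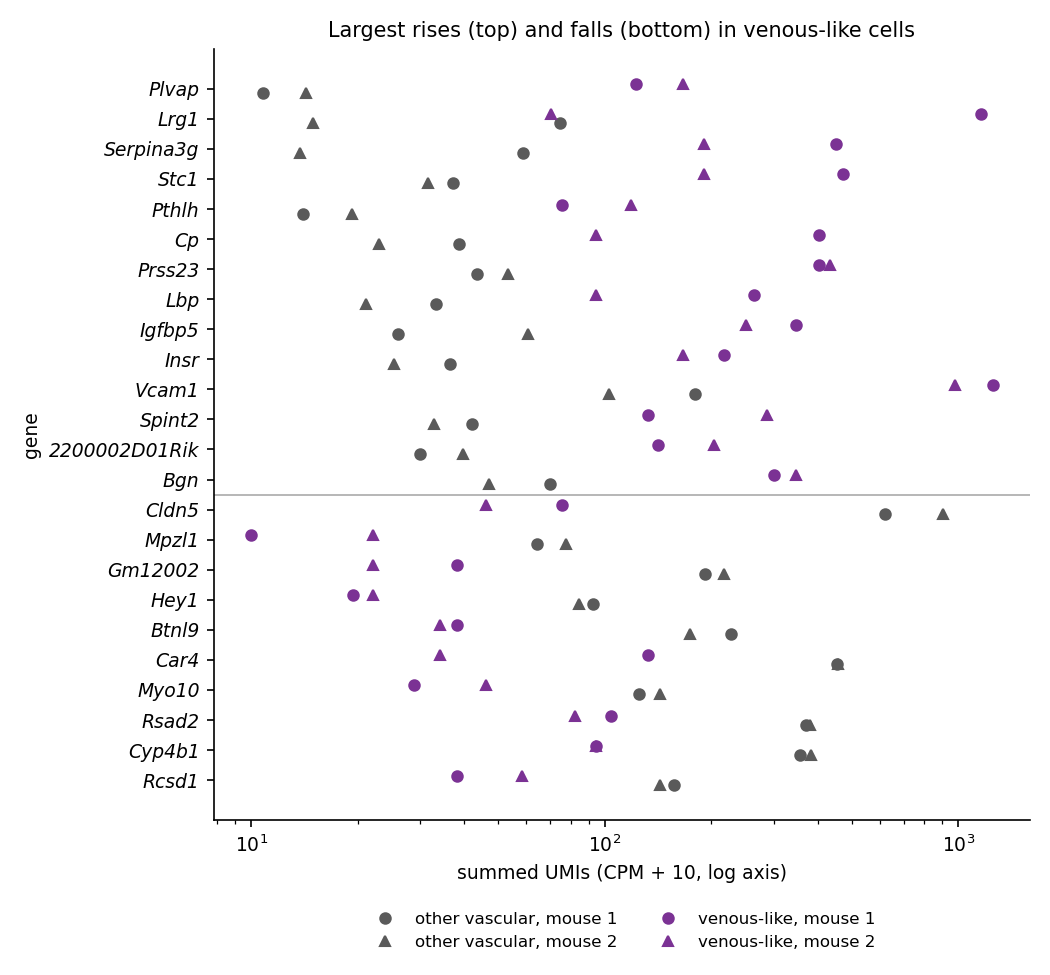
CPM plus 10 (horizontal axis, log scale) of the 14 genes with the largest rise and the 10 with the largest fall, in venous-like (purple) and other vascular cells (grey) of mouse 1 (circles) and mouse 2 (triangles). Genes were taken only if they moved alike in both mice. By that choice, both venous-like values lie on the same side of the other vascular value of the same mouse in every gene shown. Lrg1 spreads most between the mice, from 60.3 to 1146 CPM.

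Of 24 tested genes of capillary identity and fatty acid uptake, none was higher and 7 were lower, and the median was -0.59. Cldn5, on the list of adhesion and junctions, had the largest fall, at 65.7 and 36.2 CPM against 608 and 893 CPM (log2 fold change -3.82 ± 0.32, edgeR adjusted p = 4.9e-14). Only 5 of the 98 cells held a Cldn5 UMI, that is 5.66% and 4.44%, against 43.2% and 51.4% of other vascular cells. In macrophages the share was 0.908% and 1.07%. Car4, the carbonic anhydrase of the capillary surface, stood at 122 and 24.1 CPM against 442 and 448 CPM (log2 fold change -2.55 ± 0.34). Btnl9, Rgcc, Kdr and Aqp7 were lower by 2.87, 1.56, 1.45 and 1.76 on the log2 scale. Gpihbp1, which carries lipoprotein lipase to the lumen, was at -1.01 (1249 and 1556 CPM against 2929 and 2562 CPM) and Lpl at -1.01. Both lay at the 2-fold limit, and RLE scaling took both just under it. Within mouse 2 alone Gpihbp1 was at -0.72, and within mouse 1 alone Lpl was at -0.91. Without the block the calls of Rgcc (edgeR adjusted p = 0.14) and Lpl (0.43) were lost.

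Other capillary genes stayed high in the 98 cells. Fabp4, the fatty acid carrier of capillary endothelium, stood at 16874 and 17745 CPM against 24727 and 27129 CPM. Its log2 difference of -0.62 had an edgeR adjusted p of 3.6e-05 but was under 2-fold. Cd36 differed by -0.27 (adjusted p = 0.25), Cav1 by -0.07 (adjusted p = 0.88) and Aqp1 by -0.38 (adjusted p = 0.075). Over 10 capillary markers, the summed level was 25288 and 24561 CPM in venous-like cells, 39679 and 38846 CPM in other vascular cells and 26914 and 25311 CPM in arterial-gate cells. In single venous-like cells the capillary markers held between 0.568% and 6.29% of the UMIs in mouse 1, with a median of 2.23%, and between 0.169% and 6.11% in mouse 2, with a median of 2.37%. The medians in other vascular cells were 3.98% and 3.96%, and the ranges overlapped.

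Of 15 tested genes of arterial identity and Notch signalling, 4 were lower and 2 were higher, with a median of -0.27. Hey1, a Notch target, gave 2 UMIs in the 98 cells and 224 in other vascular cells, a level 7.39 times lower (95% counting interval 2.02 to 61.4), which passed edgeR (adjusted p = 0.0034) but not DESeq2 (0.13). Efnb2, the arterial ligand of Ephb4, gave 1 UMI, and Dll4, a Notch ligand, stood at 18.8 and 48.3 CPM against 96.0 and 107 CPM (log2 fold change -1.69 ± 0.52). The Dll4 call was lost by DESeq2 (adjusted p = 0.34), and in edgeR without the block (0.092) and in cells of at least 1500 UMIs (0.24). It was also lost in edgeR with Nr2f2 and Vwf at 3 or more (0.054), without cells of other lineages (0.07) and without cells carrying endocardial markers (0.054). The edgeR call of Hey1 was lost with Nr2f2 and Vwf at 3 or more (0.059) and in cells of at least 1500 UMIs (0.25). Cxcl12 was lower at 563 and 458 CPM against 1116 and 1354 CPM, and its ratio within mouse 1 alone was just under 2-fold, at -0.99 on the log2 scale. The 2 higher genes were Stmn2, at 254 and 458 CPM against 110 and 197 CPM, and Clu, at 113 and 24.1 CPM against 21.6 and 9.25 CPM. The Stmn2 call was lost without the block (edgeR adjusted p = 0.15), and with no filter on low counts its log2 difference was 0.94. Notch1, Sox17 and Mecom did not pass, at log2 differences of -0.44, -0.27 and -0.24.

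The remaining named falls were Mpzl1, Gm12002, Myo10, Rsad2, Cyp4b1 and Rcsd1. Mpzl1, a surface glycoprotein, gave 1 UMI against 178, a ratio of 11.7 times lower with a wide interval (2.08 to 466), and was not called by DESeq2. Rcsd1, which binds the actin capping protein, lies beside it on the minus strand (chr1:165646516-165709757 and chr1:165592240-165634538 in GRCm38) and stood at 28.2 and 48.3 CPM against 146 and 133 CPM. DESeq2 did not call Rcsd1 (adjusted p = 0.17) or Myo10 (0.088). Rsad2, an antiviral interferon target, stood at 93.9 and 72.4 CPM against 362 and 370 CPM (log2 fold change -2.15 ± 0.32). It was the only fall among 31 tested interferon and antigen presentation genes. The only rise there was Igtp, at 1.19, which DESeq2 did not call, and the median was 0.06. Over all genes tested 3.93% were higher and 2.4% lower, so 1 of each lies near those shares.

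Of 19 tested matrix genes, 5 were lower and 3 higher, with a median of 0.20. Col4a1 and Col4a2, which form the collagen IV chains of basement membrane, were lower by 1.06 and 1.84 on the log2 scale. Within mouse 2 alone Col4a1 was at -0.95. Sparc stood at 742 and 651 CPM against 2313 and 2280 CPM, and Sparcl1 at 291 and 338 CPM against 1089 and 1280 CPM. The higher genes were Bgn, Mgp and Eln, the gene of elastin, which stood at 197 and 314 CPM against 35.2 and 50.6 CPM (log2 fold change 2.51 ± 0.32). Of 23 tested haemostasis genes, 5 were higher, among them Selp, Ptgs1, Entpd1 and Cd9, and Igfbp7 was lower. Thbd and Nos3 did not pass, at log2 differences of 0.39 and -0.12. Cd9, a tetraspanin, was found in 90 of the 98 cells, at 3071 and 2087 CPM against 1070 and 1060 CPM, and within mouse 2 alone its log2 difference was 0.98, just under 2-fold. The call of Ptgs1 was lost without the block (edgeR adjusted p = 0.072). Of 19 tested angiogenic genes, 5 were higher, among them Vegfc, the lymphatic growth factor, by 1.90, and 2 were lower. None of 13 tested TGF-beta and BMP genes and none of 20 immediate early and stress genes was called, with medians of 0.34 and 0.19. Among 25 transcription factor genes only Hey1 was called. Of all genes tested 6.32% were called, so lists of this size would hold few calls or none.

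Markers of other cell types were counted in the same cells. Pericyte markers stood higher in venous-like than in other vascular cells, at 629 and 700 CPM against 311 and 256 CPM over 8 genes. In mouse 1, 2 cells held 63 of the 67 UMIs, and in mouse 2, 3 cells held 53 of the 58. The smooth muscle markers Acta2, Tagln, Myh11 and Cnn1 were all at 0. Endocardial markers that the choice did not use stood at 216 and 338 CPM against 76.0 and 68.4 CPM over 10 genes, with Fst, Bmp6 and Hapln1 at 0 in both mice. One of the 10 is Plvap. Fibroblast markers (8 genes) stood at 648 CPM against 430 in mouse 1 and at 338 against 395 in mouse 2, with Col1a1 and Pdgfra at 0 in both. In mouse 1, 34.0% of venous-like and 16.2% of other vascular cells had at least 2 UMIs of them, and in mouse 2 8.89% and 12.9%. Lymphatic markers (5 genes) stood at 178 CPM against 58.4 in mouse 1 and 36.2 against 105 in mouse 2, with Reln at 0. Bgn is also a fibroblast gene, with a UMI in 93.7% and 88.3% of fibroblasts, and without cells of other lineages its log2 fold change was 2.66. Platelet markers gave 1 UMI in each mouse, and 6 of 7, including Gp9 and Ppbp, were at 0. The cycling markers came from 1 cell of mouse 2 with 26 UMIs, and T or NK cell markers from 1 cell of mouse 1 with 17. Without cells carrying other lineages' genes, 61 genes were higher and 33 lower, of which 52 and 30 were calls of the full set, over 1228 genes tested. Without cells carrying endocardial markers, 63 were higher and 44 lower.

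**Figure D4:**
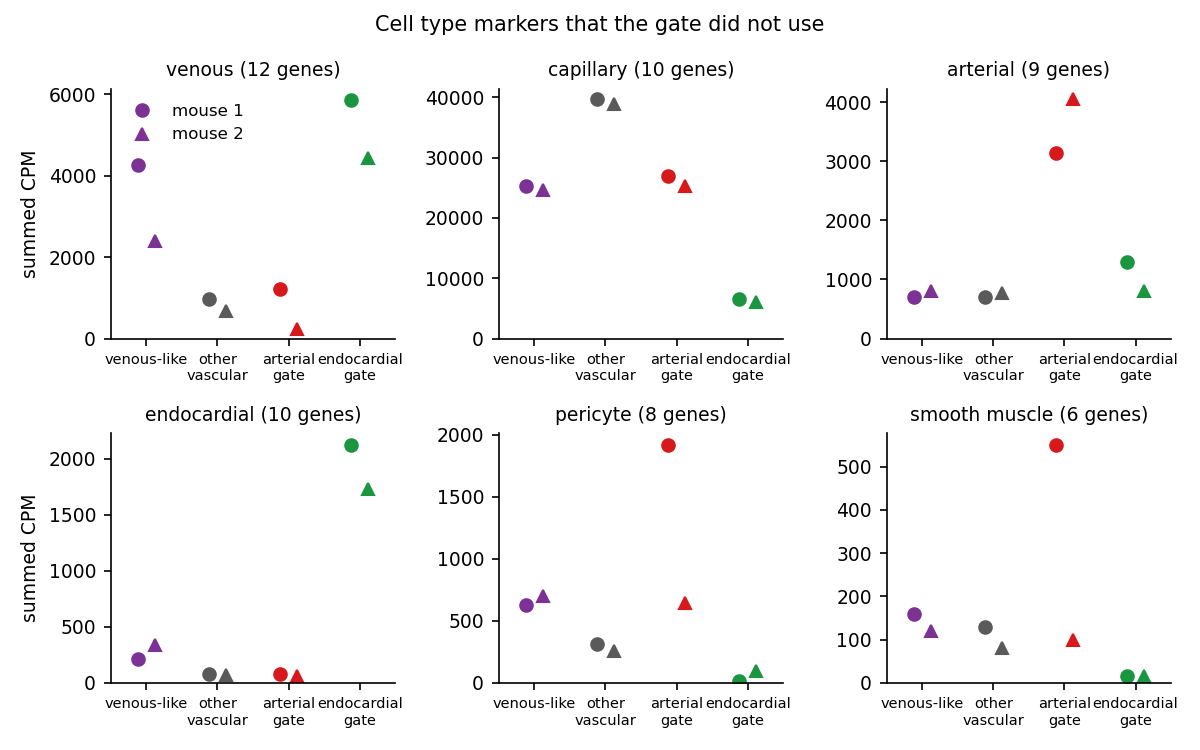
Summed CPM (vertical axes, linear from 0) of 6 marker lists, leaving out the genes that chose the cells, in the 4 sets of endothelial cells of mouse 1 (circles) and mouse 2 (triangles). Venous-like cells held 4263 and 2401 CPM of the venous markers, between the other vascular cells at 962 and 667 CPM and the endocardial-gate cells at 5844 and 4438 CPM.

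The venous markers outside the choice of cells were spread over most of the 98 cells. At least 2 of the 12 markers had a UMI in 77.4% of cells in mouse 1 and 68.9% in mouse 2, against 26.3% and 16.4% of other vascular cells. None of them had a UMI in 4 and 5 of the venous-like cells. The difference in depth given above moves with these shares, and its part in them was not tested.

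Against arterial-gate cells, 94 of 1961 genes were higher (4.79%) and 83 lower (4.23%), 177 or 9.03% in all, with a median of 0.04. Of 17 venous genes, 13 were higher and none lower. The largest rises were in genes with 0 UMIs in the arterial-gate cells, so their folds are lower bounds set against 3 counts over that group. Serpina3g was at least 17.3-fold higher, Igfbp5 at least 15.6-fold, Aplnr at least 13.1-fold, Prg4 (lubricin) at least 10.6-fold, Lbp at least 9.48-fold and Plvap at least 6.97-fold. The Serpina3g call was lost without the block (edgeR adjusted p = 0.12), and that of Plvap in cells of at least 1500 UMIs (0.061) and without cells of other lineages (0.051). Of these 6, Aplnr alone had not passed against other vascular cells, where it stood at 150 and 374 CPM against 184 and 348 CPM. Nrp2, which had not passed there either, was higher than in arterial-gate cells by 3.07 ± 0.57 on the log2 scale.

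In the other direction, 10 of 15 arterial and Notch genes were lower, among them Sox17 by 2.05, Mecom by 2.47 and Edn1, the endothelin-1 gene, by 2.82 on the log2 scale. Hey1 was 44.2 times lower (95% counting interval 11.8 to 372). Nebl, an actin-binding protein, was at least 15.5-fold lower and Fads3 at least 10.4-fold lower, with 0 UMIs in venous-like cells. Fn1 (fibronectin), Mpzl1 and Arhgef28 gave 1 UMI each there, against 29, 25 and 22 in arterial-gate cells. Clu turned with the comparison, higher than in other vascular cells and lower than in arterial-gate cells by 1.91. The 2 comparisons share the venous-like cells. Of 20 immediate early and stress genes, 5 were higher (Fos, Jun, Junb, Egr1 and Ier3) and 2 lower. Pericyte markers stood at 1916 and 646 CPM in the arterial-gate cells. Without cells carrying other lineages' genes, pericyte genes among them, 23 and 30 arterial-gate cells were left. That fit called 124 genes over 1228 tested, and 97 of them were among the 177. The part of pericyte RNA by itself was not tested.

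Against endocardial-gate cells, which line the chambers, 125 genes were higher (6.37%) and 91 lower (4.64%), 216 or 11% in all, with a median of 0.01. Of 24 capillary genes, 15 were higher and 1, Fabp5, was lower. Fabp4 stood at 16874 and 17745 CPM against 4868 and 5024 CPM. Timp4, an inhibitor of metalloproteinases, stood at 798 and 977 CPM against 15.5 and 15.8 CPM, from 2 UMIs, a ratio of 55.9 (95% counting interval 15.2 to 466). C1qtnf9 was 24.3 times higher (6.48 to 204). Prg4, Vegfc, Adgrg1 and Ccdc85a had 0 UMIs in endocardial-gate cells and were at least 8.53-fold, 6.96-fold, 4.49-fold and 4.04-fold higher. The Vegfc call was lost without the block (edgeR adjusted p = 0.062).

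Among the venous genes, the endocardial-gate cells stood above the venous-like cells more often than below. Of 17, 6 were lower in venous-like cells and 2 were higher, Prss23 (log2 fold change 2.24 ± 0.44) and Aplnr (2.68 ± 0.58). Mgp stood at 385 and 567 CPM against 4759 and 6355 CPM, and Igfbp5 at 338 and 241 CPM against 1426 and 2536 CPM. Bgn and Plvap were also lower, by 1.29 and 1.83 on the log2 scale. Vcam1 differed by 0.02 (-0.37 in mouse 1 and 0.61 in mouse 2) and Selp by 0.67, neither past the test. Genes with 23, 22 and 17 UMIs in endocardial-gate cells and none in venous-like cells were Ptgis (prostacyclin synthase), Rnf141 and Pla2g4a, at least 11.4-fold, 10.9-fold and 8.41-fold lower. Tmem108, Cdh11 and Ahsg gave 2, 1 and 1 UMIs against 63, 31 and 33. DESeq2 did not call Ahsg (adjusted p = 0.18), and the Ptgis call was lost with Nr2f2 and Vwf at 3 or more (edgeR adjusted p = 0.059). Of 13 TGF-beta and BMP genes, 4 were lower (Id2, Smad6, Ltbp4 and Fstl1).

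The 98 cells were then split by which of the 2 genes they carried. Each kind had 13 to 19 cells in a mouse, too few for the test, so these are ratios of summed UMIs with counting intervals. Prss23 was even, with 25 UMIs in Nr2f2-only and 21 in Vwf-only cells, a ratio of 0.87 (95% interval 0.47 to 1.63). Calcrl was even too, at 0.91 (0.52 to 1.60). Nr2f2-only cells held more Timp4 (2.92, 1.85 to 4.78), Cxcl12 (2.87, 1.57 to 5.59), Sparcl1 (3.01, 1.36 to 7.55), Igfbp7 (2.09, 1.44 to 3.12) and Aplnr (2.74, 1.23 to 6.91). Timp4 stood at 984 and 1836 CPM in Nr2f2-only cells, 760 and 658 CPM in cells with both, and 575 and 303 CPM in Vwf-only cells.

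Bgn and Mgp, which endocardial-gate cells also carried and which were picked after their values were seen, stood higher in Vwf-only cells in both mice. The ratio of Nr2f2-only over Vwf-only was 0.27 for Bgn (0.12 to 0.58) and 0.27 for Mgp (0.14 to 0.51). In mouse 1, 14 of the 22 Mgp UMIs of the Vwf-only cells came from 1 cell. Plvap gave 0 UMIs in the 35 Nr2f2-only cells, 11 in cells with both and 14 in Vwf-only cells. Lrg1 (0.37, 0.22 to 0.59), Lcn2 (0.23, 0.12 to 0.41) and Vcam1 (0.50, 0.33 to 0.75) were also lower in Nr2f2-only cells. For Lrg1 this held in mouse 1, at 609 against 1792 CPM, while mouse 2 had 5 UMIs in all, and Lcn2 had none in mouse 2. Endocardial markers other than Plvap and the gating genes were found in 6 Nr2f2-only, 7 double and 3 Vwf-only cells. Among the genes with the largest ratios, Rgs5, a pericyte gene, gave 62 UMIs in 4 Nr2f2-only cells. Of these, 34 came from 1 cell of mouse 1 and 26 from 1 cell of mouse 2. Stmn1 gave 43 UMIs in 3 Vwf-only cells. Of all 47 Stmn1 UMIs, 41 came from 1 cell. Acer2, an alkaline ceramidase, gave 15 UMIs in 8 Vwf-only cells and none in Nr2f2-only cells.

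**Figure D5:**
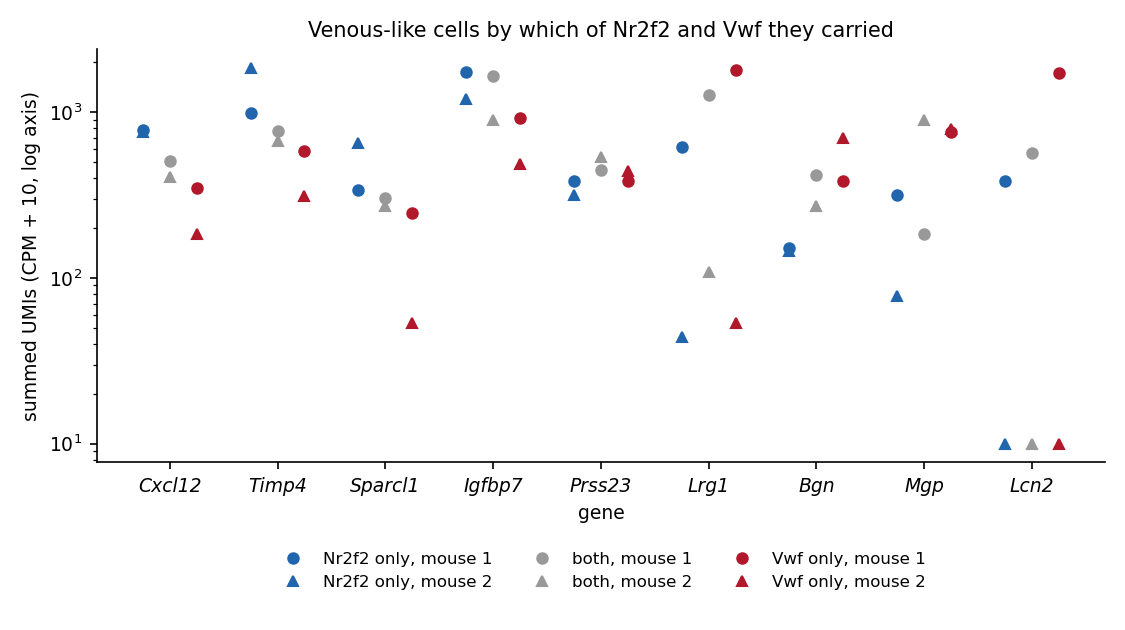
CPM plus 10 (vertical axis, log scale) of 9 genes in venous-like cells that carried only Nr2f2 (blue), both genes (grey) or only Vwf (red), in mouse 1 (circles) and mouse 2 (triangles). Timp4 and Cxcl12 are highest in Nr2f2-only cells in both mice, Prss23 is even, and Lcn2 has 0 UMIs in all 3 kinds in mouse 2.

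The mice were compared with no test, since each gave 1 library. Of 89 genes with at least 100 UMIs in 1 mouse, 13 were at least 2-fold higher in venous-like cells of mouse 1 (14.6%) and 1 in those of mouse 2 (1.12%). A gene could enter through 1 mouse alone, as Lrg1 did with 122 and 5 UMIs and Fabp5 with 56 and 110. Mouse 1 gave more UMIs (106495 against 82896), so the limit let in more genes through it, and the 2 counts are not on equal terms. Lrg1 was 19 times higher in mouse 1 (95% counting interval 7.92 to 59.5), and in other vascular cells it was 13.1 times higher (6.36 to 31.5). Icam1 was 3.70 times higher, the cell cycle inhibitor Cdkn1a 3.03 times, the heat shock genes Hspb1 and Hsp90ab1 2.93 and 2.82 times, and Rgcc 2.70 times. In other vascular cells these ratios were 3.19, 2.45, 2.11, 1.68 and 1.87, all in the same direction. Fabp5 was 2.52 times higher in mouse 2 (1.81 to 3.55), against 1.43 times in other vascular cells. Of the genes that separated venous-like from other vascular cells, Prss23, Calcrl, Insr and Bgn had nearly the same level in both mice, and Lrg1, Selp, Lcn2 and Cxcl1 did not.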

How the data were processed

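The authors deposited 1 table of raw UMI counts per mouse, gene symbols by cell barcodes, with no normalization. Per the submitters' processing notes, Cell Ranger 2.2.0 and FastQC were run and the build was mm10. How barcodes were chosen is not given in the sources used here. Per the labels' protocols, the chemistry was 10x Chromium 3′, kit version 2.

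Cells were gated as described above, and UMIs were summed per group and mouse. CPM is computed from these sums. edgeR 4.0.16 (R 4.3.3) was run with TMM scaling, filterByExpr and quasi-likelihood F tests on 8 sums (4 groups in 2 mice), with mouse as a block because all groups came from the same 2 animals. This left 3 residual degrees of freedom, and the spread rests largely on the 53.26 prior degrees shared over genes. p-values were Benjamini-Hochberg adjusted over all 1961 genes tested other than the 17 gating genes. DESeq2 1.42.0 was an alternative, and the other alternatives are given at the end. Doublets were called with Scrublet in scanpy 1.11.5 and left in. SE was derived from the F statistic. Intervals, ratios and floors (3 counts) are at 95% and cover counting error only. The edgeR step was tested on simulated data.

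Named genes were the called ones with the largest change (14 higher and 10 lower against other vascular cells, 6 in each direction against each other group) moving alike in both mice, where the higher group had 50 CPM or more in both animals. Added were up to 4 called genes per list by CPM, all venous markers, the largest ratios between kinds of cell, and the largest ratios between mice. Other genes named, such as Fabp4, Cd36, Cpe, Ctsh, Eln and Col4a2, come from the lists and were chosen after their values were seen. Cells, lists and comparisons were chosen with earlier results of these data known. Positions are from GENCODE M21 (GRCm38). Values of some single genes are not reported here.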

Additional observations from a re-analysis of the deposited data

How the results depend on the processing

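No value in the tables of settings changed sign, but some values within 1 mouse did. For example, Lcn2 and the uncalled Tmem252 had no UMI in venous-like cells of mouse 2, but had some in its other vascular cells. The uncalled differences of Aplnr (against other vascular cells) and Vcam1 (against endocardial-gate cells) had opposite signs in the mice. The 77 genes higher against other vascular cells became 50 with DESeq2, 34 with no replicate block and 38 in cells with at least 1500 UMIs. With no filter on low counts 78 were higher, of which 53 were among the 77. With only the compared groups in the fit 97 of 7026 genes tested were higher, of which 63 were among the 77. The 47 lower became 22 with DESeq2, 22 with no replicate block, 19 in the deeper cells, 116 with no filter on low counts (14518 genes tested, and 40.2% of calls higher) and 75 with no floor on the fold. The 177 calls against arterial-gate cells became 110 with DESeq2, 89 with no replicate block and 84 in the deeper cells. With only the compared groups in the fit they became 105, and without cells of other lineages 124. The 216 against endocardial-gate cells became 115 with DESeq2, 109 with no replicate block, 139 in the deeper cells, 120 with Nr2f2 and Vwf at 3 or more, and 126 without cells of other lineages. The causes were not tested. Fewer genes entered the test in the smaller sets of cells. The shares of 5.67% and 3.59% became 2.99% and 1.92% with Nr2f2 and Vwf at 3 or more, and 8.3% and 5.67% in the deeper cells.

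Within the single mouse left when the other was taken out, 66 to 73 of the higher, 39 to 43 of the lower, 157 to 164 of the arterial and 191 to 195 of the endocardial calls were at least 2-fold in the called direction. This is a ratio with no test. Of the 47 named genes called against other vascular cells, DESeq2 called 34, the fit with no replicate block 32 and RLE scaling 45. In the smaller sets of cells the minimum of 30 cells per mouse was lifted. The split of venous-like cells by gene had under 30 cells per mouse and was not tested, so it has no alternative settings. Depth limits what was seen: 0 UMIs in venous-like cells allow up to 28.2 CPM in mouse 1 and 36.2 in mouse 2. The settings without cells carrying endocardial markers and without cells carrying cycling markers were chosen after seeing the data.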
